A study of Rattus norvegicus with 129 samples.

Results

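Livers of fasted rats make glucose, and 8 genes that mark this switch were followed here across 5 rat liver studies. They are Pck1, G6pc1 and Fbp1, which encode enzymes of gluconeogenesis; Sds and Tat, which encode enzymes that break down serine and tyrosine; Pdk4, a kinase that turns off pyruvate dehydrogenase; Igfbp1, a secreted binding protein for insulin-like growth factors; and Pklr, the liver pyruvate kinase of glycolysis. The genes were chosen on measured values of these same arrays, namely each treated group against its control and the vehicle groups by time. Those differences are therefore given as descriptions without p-values. Every probe set that the platform annotation assigns to a member was taken. These were 11 of 8799 probe sets on the array of the phenobarbital and PCN, D3T and 3-week PFOS studies, 12 of 15923 on the array of the Wy-14643 study, and 13 of 31099 on the one used for PFOA and PFOS. Of these, 9, 8 and 9 carried 1 gene symbol, from 7 genes on each array. Member counts below are over those probe sets, so a gene with several of them is counted more than once. G6pc1 had no probe set of its own: 2, 4 and 4 probe sets were annotated to Psme3, Aoc3 and G6pc1 together. On the larger arrays, 1 of those 4 lists the RefSeq transcript of G6pc1 and is called the G6pc1 probe set. On the older array no accession separated the genes, and the brighter of the 2 is called the shared probe set.

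During a fast, glucagon and glucocorticoids raise and insulin lowers the transcription of Pck1, G6pc1 and Igfbp1, in part through cAMP signalling and FOXO factors. Pdk4 rises as the liver turns to fatty acids and is a target of the nuclear receptor PPARα, while Pklr is a fed-state gene driven by glucose and insulin. Phenobarbital (PB) activates the receptor CAR, PCN activates PXR, Wy-14643 activates PPARα, D3T induces antioxidant enzymes, and PFOA and PFOS are perfluoroalkyl acids. CAR and PXR are known for inducing drug-metabolising enzymes. The rats' feeding state at sampling is not given in the sources used here.

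The series holds 129 arrays in 31 groups, each array from 1 liver. In the largest study, male and female Sprague-Dawley rats were gavaged with 100 mg/kg PB, 100 mg/kg PCN or vehicle (methylcellulose with Tween 80), and livers were taken 6 h or 24 h after 1 dose or 24 h after 5 daily doses (n = 5 a group). The rat 1003 of the male 6 h vehicle group was left out (n = 4), leaving 89 rats: its array correlated with the others of its group at r = 0.627, against 0.974 to 0.981 for the remaining 4. Female Sprague-Dawley rats, 4 weeks old, ate a mash diet with 600 mg D3T per kg or the same diet without it (n = 4 each, duration not given in the labels). Female Sprague-Dawley rats of 60 days received 5 mg/kg PFOS or a Tween-20 vehicle daily for 3 weeks (n = 2 each). Male Sprague-Dawley rats of 10 weeks received 20 mg/kg/day PFOA, 10 mg/kg/day PFOS or an Alkamuls vehicle (n = 3 each, duration not given in the labels). Male Wistar Hanover rats received 60 mg/kg/day Wy-14643 or carboxymethyl cellulose for 1, 3 or 7 days and were killed on the morning after the last dose (n = 3 a group). The label of Wy-14643 rat 06, in the 3-day group, names no dose.

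Values are log2(intensity + 16), in which a probe set at or below zero intensity sits at the floor of 4.00. A difference that reaches the floor is smaller on this scale than the change in intensity, and low values are compressed. Mean intensity per array ran from 93.3 to 614. Hepatocyte markers averaged 11.8 to 13.4 on every array, while kidney markers averaged 4.51 to 5.86 and lymphocyte markers 4.78 to 6.04. The pancreas markers averaged 5.15 to 6.82, apart from 10.4 in Wy-14643 rat 05 of the 1-day group. In bulk liver, fewer cells of a type and less RNA per cell cannot be told apart. Differences are given ± SE of the fit over all groups of a study, and a probe set counted as called where limma's adjusted p over all tested probe sets was under 0.05. The share of all tested probe sets called is printed beside the first member count of each comparison; for comparisons that chose the genes it is only printed.

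The RefSeq promoter table (GRCr8, 250 bases before to 50 after the transcription start) held 7 of the 8 genes, all but Sds. The sequences of Pck1, G6pc1 and Igfbp1 are shown because Igfbp1, Pck1 and the shared probe set gave the 3 strongest correlations between rats of the same group; G6pc1 enters only through that probe set, which cannot be assigned to it alone. Capitals mark the matches found on either strand to CAAAACA, the core of an insulin response element, and to ACGTCA, the core of a cAMP response element.
Pck1, chr3:182348322-182348621, plus strand: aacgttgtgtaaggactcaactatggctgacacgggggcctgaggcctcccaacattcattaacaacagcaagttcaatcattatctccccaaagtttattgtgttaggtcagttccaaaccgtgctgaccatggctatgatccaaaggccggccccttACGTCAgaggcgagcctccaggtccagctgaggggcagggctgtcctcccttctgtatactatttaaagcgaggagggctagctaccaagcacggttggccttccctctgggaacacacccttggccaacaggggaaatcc
G6pc1, chr10:86807409-86807708, plus strand: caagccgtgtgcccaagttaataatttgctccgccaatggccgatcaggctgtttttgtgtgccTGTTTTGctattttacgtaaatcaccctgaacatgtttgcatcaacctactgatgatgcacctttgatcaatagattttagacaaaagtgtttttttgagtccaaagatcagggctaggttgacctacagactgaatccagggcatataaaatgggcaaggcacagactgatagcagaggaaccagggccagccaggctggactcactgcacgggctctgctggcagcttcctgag
Igfbp1, chr14:86261027-86261326, plus strand: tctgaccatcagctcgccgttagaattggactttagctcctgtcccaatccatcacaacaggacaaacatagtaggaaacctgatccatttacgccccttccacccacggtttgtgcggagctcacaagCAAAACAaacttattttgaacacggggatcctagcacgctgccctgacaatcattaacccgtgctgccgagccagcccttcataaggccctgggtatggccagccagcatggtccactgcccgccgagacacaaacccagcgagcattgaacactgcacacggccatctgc
In Pck1 the capitals are ACGTCA at -91 to -86 from the start, in G6pc1 the reverse complement of CAAAACA at -186 to -180, and in Igfbp1 CAAAACA at -121 to -115. Of 33469 rat promoters of this length, 6.28% held CAAAACA and 7.94% held ACGTCA on either strand. The FOXO motif core GTAAACA was searched as well and is in 3.78% of promoters. The glucocorticoid receptor motif TGTTCT is in 20.7%. The E-box CACGTG is in 6.42%. None of the 5 was in the windows of Fbp1, Tat, Pdk4 or Pklr. These are letter matches in a short window and were not tested for binding.

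The members differed widely in how much they varied over the 18 groups of the PB and PCN study. Sds had group means from 4.93 (PCN females, 5 doses) to 12.19 (PB females, 6 h), and Igfbp1 from 4.00 (PCN females, 6 h) to 10.27 (PB females, 6 h). The shared probe set ran from 5.04 (vehicle females, 6 h) to 10.53 (PB females, 6 h) and Pdk4 from 4.44 to 8.64 in the same pair of groups. Pck1 spanned 9.46 (PB females, 24 h) to 11.87 (vehicle males, 5 doses), Pklr 6.41 (PCN males, 5 doses) to 8.41 (vehicle males, 24 h) and Tat 9.47 (PCN males, 24 h) to 11.30 (PB females, 6 h). Fbp1, fructose-1,6-bisphosphatase, hardly moved, with group means of 11.45 to 11.86. PB females at 6 h thus held the highest mean of 5 of these 8 measures, all but Pck1, Fbp1 and Pklr. The dimmer probe set annotated to Psme3, Aoc3 and G6pc1 is not among the 8 and did not follow the shared one. Its group means stayed at 5.79 (PB females, 24 h) to 6.31 (vehicle females, 5 doses). At 6 h it averaged 5.98 in PB females, against 6.12 in vehicle females.

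**Figure D1:**
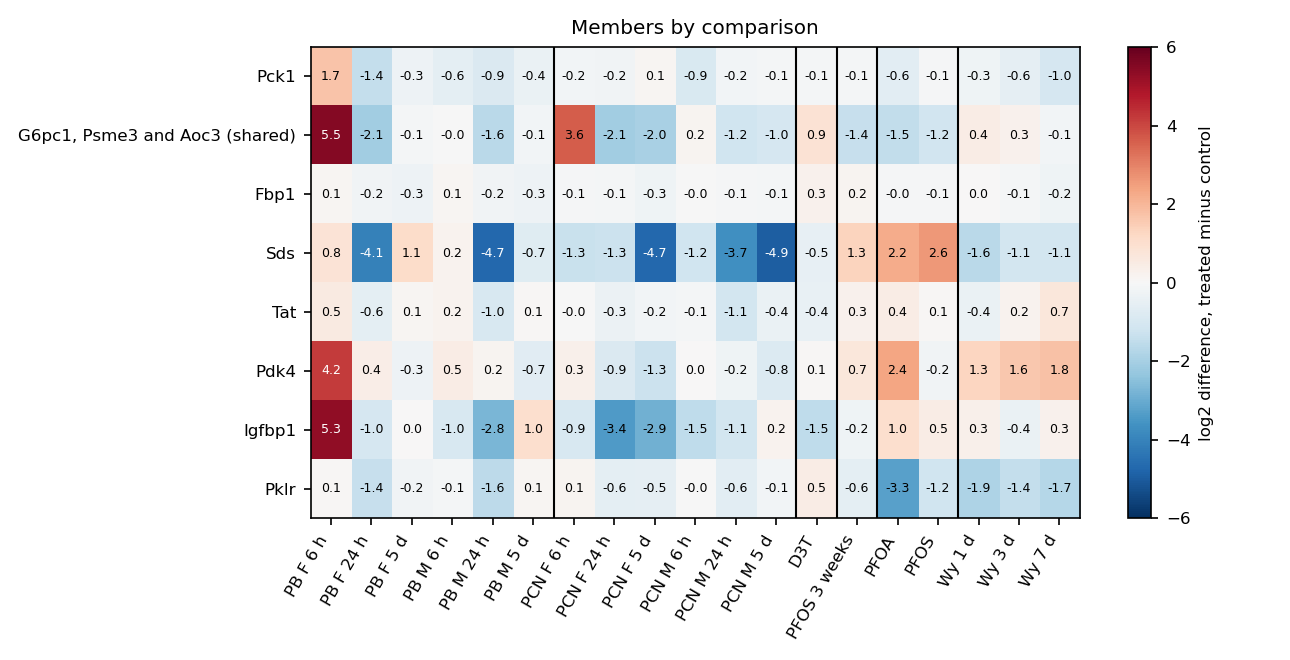
Log2 difference of each treated group minus its own control (columns) for the 8 members (rows), G6pc1 by the shared probe set in the first 14 columns and by the G6pc1 probe set in the last 5. F and M are females and males; black lines separate compounds and studies. The deepest red cells are Igfbp1, the shared probe set and Pdk4 in PB females at 6 h (5.32, 5.49 and 4.20), and the deepest blue cells are Sds with PCN after 5 doses (-4.72 and -4.94) and with PB at 24 h (-4.06 and -4.71).

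At 6 h after 1 dose of PB, livers of female rats had higher Igfbp1, Pdk4, Pck1 and shared probe set levels than those of vehicle females. Igfbp1 was 6.95, 10.75, 11.05, 11.22 and 11.38 in PB females, against 4.00, 4.00, 4.00, 4.23 and 8.48 in vehicle females. PB rat 4505 was the low one and vehicle rat 1503 the high one, and through this pair the groups overlapped. The difference was 5.32 ± 0.89. Pdk4 was 5.64, 8.24, 9.09, 9.84 and 10.41 in PB females, against 4.00, 4.00, 4.00, 4.24 and 5.98 in vehicle females, a difference of 4.20 ± 0.58. Rats 4505 and 1503 again held the lowest PB and the highest vehicle value. Pck1, the cytosolic PEP carboxykinase, was 11.09, 11.77, 11.83, 11.84 and 11.90 in PB females, against 9.02, 9.32, 9.52, 10.77 and 11.24 in vehicle females, a difference of 1.71 ± 0.34. The groups overlapped through the same 2 rats. The shared probe set was 8.53, 10.50, 11.14, 11.14 and 11.38 in PB females, against 4.00, 4.00, 4.37, 5.57 and 7.28 in vehicle females. Here the groups were apart, by 5.49 ± 0.86. Tat, tyrosine aminotransferase, differed by 0.52 ± 0.19 and Sds, serine dehydratase, by 0.82 ± 0.97, with overlapping groups. Pklr differed by 0.07 ± 0.27. Of the 9 single-symbol probe sets, 3 were called higher in PB females, where 2.61% of all probe sets were called.

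In PB males at 6 h, Igfbp1 was at 4.00 in 4 rats and 10.34 in rat 4005, against 4.90, 6.45, 6.65 and 7.00 in vehicle males. Pck1 was 10.16, 10.76, 10.98, 11.16 and 12.13 in PB males, against 11.31, 11.66, 11.75 and 11.79 in vehicle males, whose Pck1 was thus near that of the PB females. Rat 4005 held the highest Pck1 of its group, the highest shared probe set (10.81 against 4.00 to 7.62) and the highest Tat (11.46 against 10.77 to 10.86). Its Pdk4 of 5.75 was close to that of the next rat, at 5.69. In PB males none of the 9 was called, and none had an unadjusted p under 0.05 in limma, with 0.732% of all probe sets called. In PCN females at 6 h, Igfbp1 was at 4.00 in all 5 rats, and Pck1 was 9.18 to 10.31. Their shared probe set was 7.08, 8.78, 8.96, 9.06 and 9.44, against 4.00 to 7.28 in vehicle females, which differed by 3.62 ± 0.86 with an overlap of 1 rat on each side. In PCN males Igfbp1 was 4.00, 4.00, 4.00, 4.95 and 6.76, against 4.90 to 7.00 in vehicle males. No member was called for PCN at 6 h by limma (2.24% of all probe sets in females and 1.86% in males), and 0 and 1 had an unadjusted p under 0.05.

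**Figure D2:**
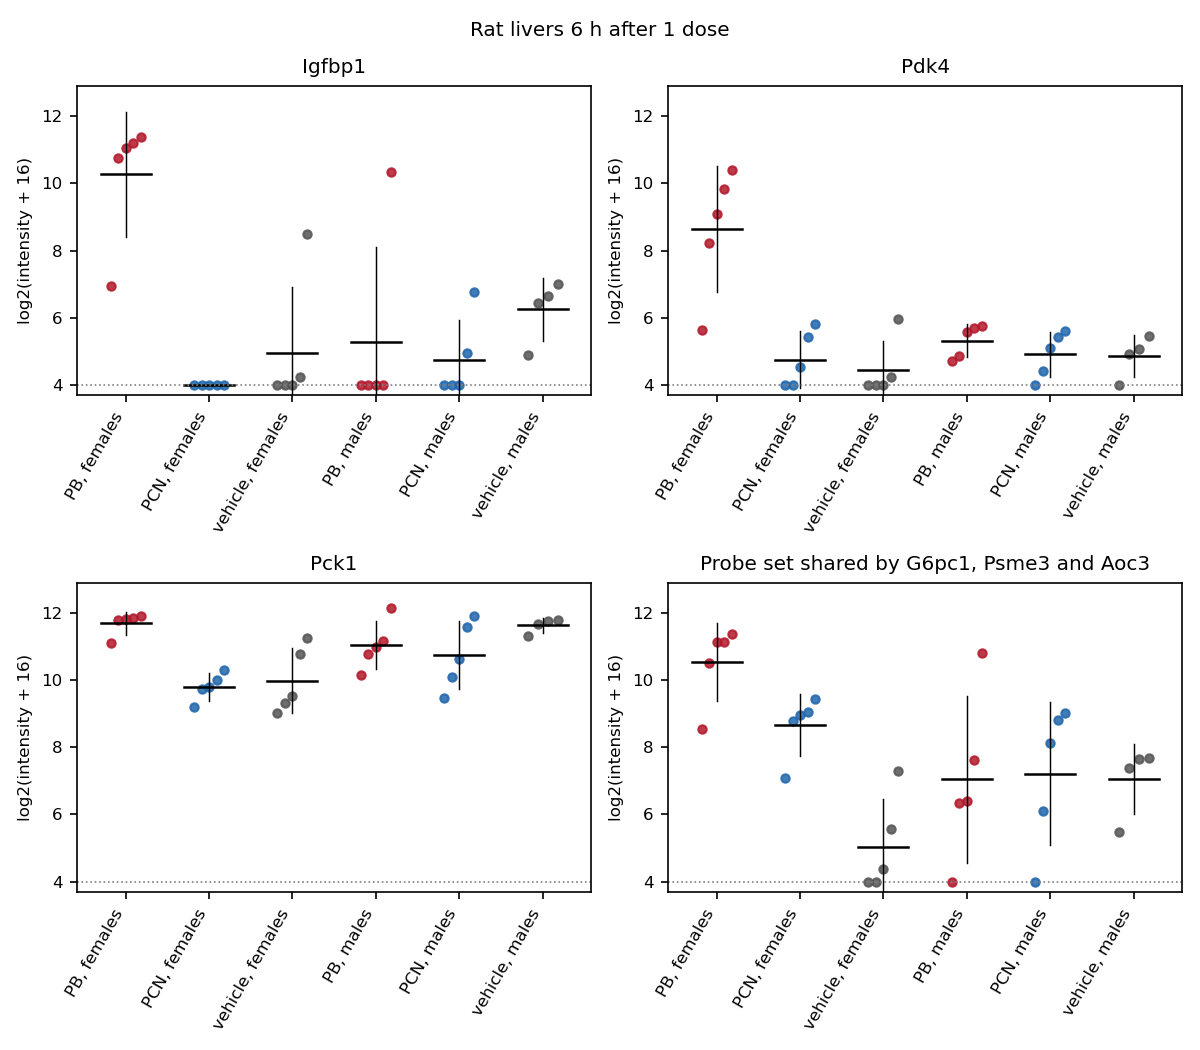
Log2(intensity + 16) of Igfbp1, Pdk4, Pck1 and the shared probe set in each rat 6 h after 1 dose. Points are rats, horizontal bars group means, vertical lines 1 SD (n = 5, vehicle males 4) and the dotted line the floor at 4.00. For Igfbp1 and Pdk4, 4 of 5 PB females lie above every rat of the other groups (10.75 to 11.38 and 8.24 to 10.41). For Pck1 the males of all 3 groups overlap with the PB females, and 1 PB male, rat 4005, stands at 10.34 for Igfbp1 above 4 males at the floor.

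PB and PCN groups of the same sex and time share their vehicle rats. Differences between the sexes, the compounds and the times were not themselves among the contrasts that chose the genes, and were tested with limma. Except for the sexes under vehicle, each is a difference of 2 contrasts that were. Here and below, their p-values are therefore not free of the choice. These tests reuse the same arrays and the genes were picked with results known, so they are not independent evidence. The PB effect at 6 h was larger in females than in males for Igfbp1 by 6.31 ± 1.29 (adjusted p = 0.0028), for Pdk4 by 3.74 ± 0.85 (adjusted p = 0.009) and for Pck1 by 2.30 ± 0.50 (adjusted p = 0.0055). These were 3 of 9 member probe sets, where 1.02% of all probe sets were called. The shared probe set also passed, at 5.50 ± 1.25 (adjusted p = 0.009), but was not run under the alternative fits given below. The vehicle levels they start from differed as well: Pck1 averaged 9.97 in vehicle females and 11.63 in vehicle males at 6 h, and Igfbp1 4.94 and 6.25. With only the 4 groups in the fit, Igfbp1, Pdk4 and Pck1 no longer passed (adjusted p = 0.23, 0.18 and 0.16), and with rat 1003 kept Pck1 fell to 0.78 (adjusted p = 0.75). With the pseudocount set to 1, Pdk4 missed the threshold (adjusted p = 0.07).

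Against PCN at 6 h in females, PB livers had higher Igfbp1 by 6.27 ± 0.89 (adjusted p = 2.9e-07), without overlap. Pck1 was higher by 1.89 ± 0.34 (adjusted p = 5.3e-05), also without overlap, and Pdk4 by 3.88 ± 0.58 (adjusted p = 1.1e-06) with rat 4505 inside the PCN range. The last of the 4 calls was 1 of the 3 Sds probe sets at 2.67 ± 0.84 (adjusted p = 0.036), while the other 2 gave 2.15 and 2.21 (adjusted p = 0.21 and 0.076). The 4 calls of 9 stand beside 6.95% of all probe sets, and became 6 without PB female 4505. The shared probe set, high in both groups, differed by 1.87 ± 0.86 (adjusted p = 0.22), with a 95% interval of 0.16 to 3.58. Keeping rat 1003 brought Pck1 to an adjusted p of 0.0505, and fitting the 2 groups alone brought Pdk4 to 0.063. That fit called 7 of the 9, among them Sds (2.15, adjusted p = 0.011), Tat (0.55, adjusted p = 0.014) and Fbp1 (0.21, adjusted p = 0.039). In males the same comparison called 0 of 9 (0.355% of all probe sets), and 1 had an unadjusted p under 0.05.

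After 5 doses Igfbp1 was 8.51 to 9.94 in PB females, against 8.50 to 10.07 in vehicle females. Its mean was 10.27 at 6 h and 9.25 after 5 doses in PB females, and 4.94 and 9.21 in vehicle females. At 24 h after 1 dose it was 7.62 in PB females, against 8.63 in vehicle females. Livers of the 5-dose groups were taken 24 h after the last dose. Number of doses and time after the dose therefore cannot be told apart in the contrasts of 5 doses with 6 h. The PB effect in females was smaller at 5 doses than at 6 h: the difference was -5.29 ± 1.26 for Igfbp1 (adjusted p = 0.0078), -4.50 ± 0.82 for Pdk4 (adjusted p = 0.00037), -2.01 ± 0.48 for Pck1 (adjusted p = 0.0087) and -0.42 ± 0.10 for Fbp1 (adjusted p = 0.012). That is 4 of 9, beside 2.43% of all probe sets. The shared probe set differed by -5.63 ± 1.21 for PB (adjusted p = 0.0024) and by -5.57 ± 1.21 for PCN (adjusted p = 0.0026). It was not run under the alternative fits that follow. With only the groups compared, Igfbp1, Pdk4 and Pck1 missed the threshold (adjusted p = 0.057, 0.071 and 0.077). With rat 1003 kept, Pck1 and Fbp1 also missed it (0.38 and 0.2), and Fbp1 under median scaling (0.62). The other 3 contrasts of 5 doses with 6 h called none of the 9 by limma (PB males, 0.584% of all probe sets; PCN females, 2.33%; PCN males, 0.698%), with 1, 1 and 3 at an unadjusted p under 0.05. The count for PB males became 1, Fbp1, without vehicle male 1002 or 1011 or PB male 4002 or 4013. The remaining sex contrasts also called none. These were PCN at 6 h (0.0458% of all probe sets), 24 h (0.0229%) and 5 doses (0.606%), and PB at 24 h (0.0114%) and 5 doses (0.103%). Unadjusted, 0, 1, 1, 0 and 1 of the 9 had p under 0.05.

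Genes of related pathways were counted from lists chosen with results of these data known. In PB females at 6 h, 2 of 7 measured fasting fatty acid and ketone genes were called higher, the thioesterases Acot1 (1.45 ± 0.29) and Acot2 (1.42 ± 0.34), and the median of the 7 was 0.68 against 0.00 over all probe sets. Of 15 hormone receptors and regulators, 2 were higher, Trib3 (1.55 ± 0.42), a stress-induced pseudokinase, and the transcription factor Cebpb (1.13 ± 0.26). Of 6 glucocorticoid-responsive genes, 2 were higher, Gadd45a (1.15 ± 0.21) and Errfi1 (0.44 ± 0.12). No measured gene of gluconeogenesis and glucose output (8 genes) was called, and among 13 of amino acid breakdown only Oat was, ornithine aminotransferase, at 1.02 ± 0.23. The clock gene Per2 differed by -2.26 ± 0.42, the only one of 7 clock genes called. Its part in the results above was not tested. Set against PCN, PB females had 4 of 7 fasting fatty acid genes higher, among them Acot2 (1.41 ± 0.34), Acot1 (1.36 ± 0.29) and Cpt1a (1.31 ± 0.32), the carnitine transferase of mitochondrial fat oxidation. They had 3 of 7 lipogenic genes lower: Fasn (-1.36 ± 0.44), Acly (-1.07 ± 0.35) and Me1 (-1.03 ± 0.24). No marker of macrophages, endothelium, stellate cells, bile duct, lymphocytes, blood, kidney or pancreas was called in PB females at 6 h.

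At 24 h after PB, Sds was the gene with the largest difference in both sexes, and it was lower in PB rats. Sds was 4.00, 4.00, 5.51, 8.28 and 8.46 in PB females, against 8.06, 9.96, 10.52, 11.00 and 11.04 in vehicle females. In PB males it was 4.00, 4.00, 4.00, 9.11 and 9.14, against 9.03, 10.66, 10.90, 11.38 and 11.83 in vehicle males. Thus 5 of 10 PB rats were at the floor and the groups overlapped by 1 vehicle rat in each sex. The differences were -4.06 ± 0.97 in females and -4.71 ± 0.97 in males, and the other 2 Sds probe sets gave -3.47 to -3.06 and -3.69 to -3.47. Pklr was 6.63 to 7.33 in PB females, against 8.01 to 8.57 in vehicle females, and 6.62 to 7.09 in PB males, against 8.01 to 9.21 in vehicle males. The groups were apart in both sexes, by -1.37 ± 0.27 and -1.57 ± 0.27. Pck1 was 8.21, 8.86, 9.37, 10.17 and 10.73 in PB females, against 10.52 to 11.23 in vehicle females (-1.43 ± 0.34). In males the Pck1 difference was -0.86 ± 0.34. Pdk4 overlapped at 24 h, at 5.27 to 6.65 in PB females, against 4.00 to 7.45 in vehicle females (0.40 ± 0.58), and at 5.31 to 6.45 in PB males, against 5.45 to 6.84 in vehicle males (0.16 ± 0.58).

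Tat differed by -0.98 ± 0.19 in PB males at 24 h (8.98 to 10.07, against 10.01 to 10.88 in vehicle males) and differed by -0.60 ± 0.19 in PB females. Igfbp1 in PB males at 24 h was 4.00, 4.00, 4.68, 5.95 and 9.27, against 7.68 to 8.99 in vehicle males (-2.75 ± 0.89). Rat 4008 was the high one and lay above every vehicle male. Of 9 member probe sets, 5 were called lower in females (4.04% of all probe sets) and 5 in males (2.31%). Without PB female 4506, 3 were called. Among the 8 measured genes of gluconeogenesis and glucose output, 3 were called lower and 1 higher in PB females at 24 h, and 4 lower in PB males. Slc2a2, the glucose transporter GLUT2, differed by -0.93 ± 0.19 in females and -0.83 ± 0.19 in males. Slc37a4, which carries glucose 6-phosphate into the endoplasmic reticulum, differed by -0.67 ± 0.15 and -0.78 ± 0.15. The gene called higher in females was the malate dehydrogenase Mdh1, at 0.53 ± 0.13, and in males Got1, aspartate aminotransferase, was at -1.08 ± 0.28. The lipogenic desaturase Scd differed by -2.45 ± 0.68 in females and -3.22 ± 0.68 in males.

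With PCN at 24 h, Tat and Sds were lower in males and Igfbp1 was lower in females than with vehicle. In PCN males Tat was 8.98 to 10.00, against 10.01 to 10.88 in vehicle males, a difference of -1.09 ± 0.19 with the groups just apart. Sds in these males was 4.00, 4.85, 6.80, 8.75 and 10.90, against 9.03 to 11.83 in vehicle males (-3.70 ± 0.97). In all, 2 of 9 were called (0.572% of all probe sets). This count became 1 without any of PCN males 5006, 5007 and 5008 or vehicle males 1006, 1007, 1008 and 1010, and 4 without PCN male 5009. In PCN females Igfbp1 was 4.00, 4.00, 5.52, 5.68 and 6.90, against 8.16, 8.31, 8.57, 8.98 and 9.11 in vehicle females. The groups were apart by -3.41 ± 0.89, and Igfbp1 was the only member called (3.67% of all probe sets). Without PCN female 5506 none was.

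Tested against PCN at 24 h, PB females had lower Pck1, by a difference of -1.22 ± 0.34 (adjusted p = 0.023), 1 of 9 beside 4.52% of all probe sets. This call was lost with only the groups compared (adjusted p = 0.22), with rat 1003 kept (0.33) and without PB female 4506 (-0.91, 0.15), PB female 4510 (0.071) or PCN female 5507 (0.073). Without PB female 4507 or PCN female 5506, 2 members were called. In males none of 9 passed in limma (1.19% of all probe sets), and 2 had an unadjusted p under 0.05. Pklr was nearest, at -0.96 ± 0.27 (adjusted p = 0.0503), and passed at a pseudocount of 64 (adjusted p = 0.037), under median scaling (0.035) and with the dimmest probe sets left out (0.037). Without PCN male 5006 or 5007, 1 was called.

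After 5 doses, Sds set the compounds apart. It was 4.00 in 4 PCN females and 8.64 in rat 5513, against 7.31, 8.93, 10.01, 10.90 and 11.12 in vehicle females (-4.72 ± 0.97). It was 4.00, 4.00, 5.42, 9.0 and 9.76 in PCN males, against 11.20, 11.20, 11.26, 11.53 and 11.72 in vehicle males (-4.94 ± 0.97, no overlap). PB rats lay at 9.79 to 11.71 in females and 9.24 to 11.72 in males. Tested directly, PB minus PCN was 5.84 ± 0.97 in females (adjusted p = 7.9e-06) and 4.23 ± 0.97 in males (adjusted p = 0.0043). The other 2 Sds probe sets gave 4.43 and 4.91 in females (adjusted p = 3.4e-05 and 1.5e-05) and 3.34 and 3.20 in males (adjusted p = 0.0062 and 0.016). In females the groups were apart, and in males they overlapped. The male call of the main Sds probe set was lost with only the groups compared (adjusted p = 0.27), while the female one kept an adjusted p of 0.017 or less under every alternative run. In all, 4 of 9 probe sets passed in females, the 3 of Sds and that of Igfbp1 (6.89% of all probe sets). In males the 3 of Sds passed and no other (3.1%).

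Igfbp1 after 5 doses was 4.00, 4.00, 7.42, 7.93 and 8.24 in PCN females, against 8.50 to 10.07 in vehicle females, apart by -2.89 ± 0.89. PB minus PCN was 2.93 ± 0.89 in females (adjusted p = 0.027), with no overlap. This call was lost at a pseudocount of 1 (adjusted p = 0.0503), with only the groups compared (0.16) and without PCN female 5511 (0.14), PCN female 5514 (0.15), PB female 4512 (0.072) or PB female 4515 (0.06). Fbp1 was slightly lower after 5 doses in PB females (-0.30 ± 0.07), PB males (-0.28 ± 0.07) and PCN females (-0.26 ± 0.07). Of the 9, 1 was called lower in PB females (2.48% of all probe sets), 1 in PB males (4.89%), 5 in PCN females (8.46%) and 3 in PCN males (4.76%). The PB counts became 0 without vehicle female 1513, PB female 4514, vehicle male 1012 or PB male 4014, and both became 0 under median scaling, with rat 1003 kept and with only the groups compared.

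Other enzymes of amino acid breakdown were lower in the same PCN livers. Of 13 measured, 6 were called lower and 1 higher in PCN females, including Cth (cystathionine gamma-lyase, -1.32 ± 0.22), Hal (histidine ammonia-lyase, -1.12 ± 0.20) and Agxt (alanine-glyoxylate aminotransferase, -0.95 ± 0.20). In PCN males 5 were called lower, including Got1 (-1.31 ± 0.28), Ass1 (argininosuccinate synthase, -0.83 ± 0.14) and Agxt (-0.79 ± 0.20). Pc, pyruvate carboxylase, differed by -1.42 ± 0.12 in PCN females and -0.79 ± 0.12 in PCN males. In the direct test of PB minus PCN in females, 6 of the 13 were higher and 1 lower. Of 8 hepatocyte markers, which include Tat and Cps1 as well, 1 was called higher and 3 lower in PCN females. Of 2 bile duct markers 1 was called higher in each sex, Epcam, at 0.78 ± 0.14 in PCN females and 0.52 ± 0.14 in PCN males. The bile duct markers averaged 5.32 to 5.88 in PCN females, against 5.18 to 5.47 in vehicle females. The part of these cells in the Sds values was not tested.

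**Figure D3:**
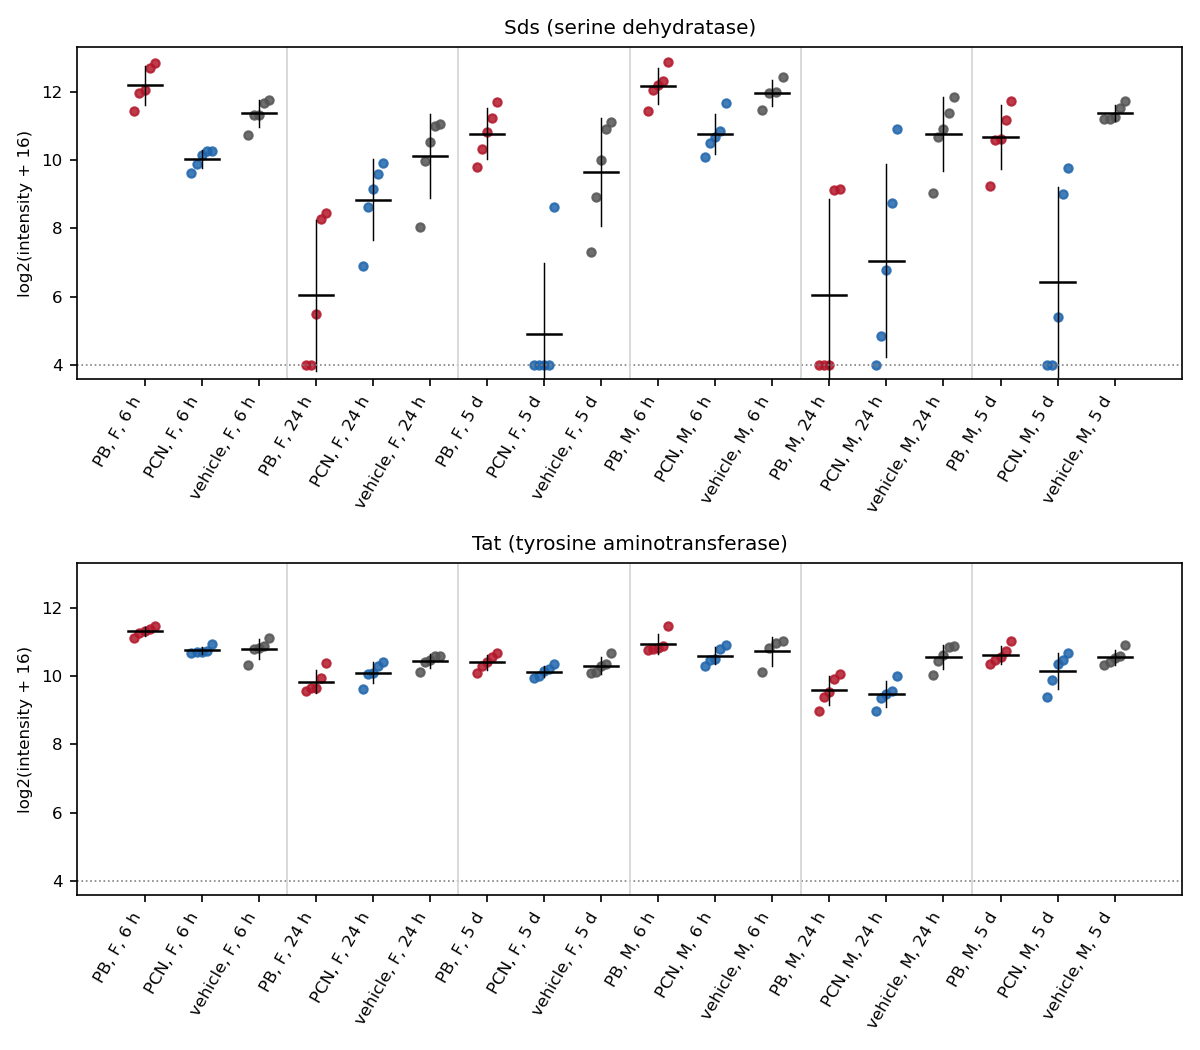
Log2(intensity + 16) of Sds (main probe set) and Tat in each of 89 rats, PB, PCN and vehicle side by side for each sex and time. Points are rats, horizontal bars group means and vertical lines 1 SD (n = 5, vehicle males at 6 h 4). Sds reaches the floor at 4.00 in PB rats and 1 PCN rat at 24 h and in PCN rats after 5 doses, while Tat stays between 8.98 and 11.47.

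The vehicle groups also differed by time, which the choice of genes used. In vehicle females Igfbp1 was 8.16 to 9.11 at 24 h, against 4.00, 4.00, 4.00, 4.23 and 8.48 at 6 h (3.68 ± 0.89). The shared probe set was 7.93 to 10.54 at 24 h, against 4.00 to 7.28 at 6 h, apart by 4.06 ± 0.86. Pklr was 8.01 to 8.57 at 24 h, against 7.09 to 7.45 at 6 h, apart by 0.95 ± 0.27. In vehicle males the Igfbp1 difference was 2.08 ± 0.94 and that of the shared probe set 2.59 ± 0.91, both without overlap. After 5 doses Pklr was 5.30 to 7.20 in vehicle males, against 8.01 to 9.21 at 24 h after 1 dose (-1.86 ± 0.27, no overlap), and 6.60 to 7.99 in vehicle females, against 8.01 to 8.57 (-1.0 ± 0.27, no overlap). Of 9 member probe sets, 2 were called for females at 24 h against 6 h (3.76% of all probe sets) and 0 for males (0.4%). For 5 doses against 24 h, 0 were called in females (0.641%) and 1 in males (1.6%). Both counts of 0 come from limma, with 1 unadjusted p under 0.05 in females after 5 doses and 2 in males at 24 h. The female count at 24 h became 1 without vehicle female 1505, 1507, 1509 or 1510, and the female count after 5 doses became 1 without vehicle female 1511 or 1512.

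At 24 h against 6 h, 2 of 7 clock genes were called in vehicle rats of each sex. Per2 differed by -2.88 ± 0.42 in females and -1.86 ± 0.45 in males, Nr1d1 by 0.99 ± 0.27 in females and Dbp by -4.30 ± 0.95 in males. Time of day and time after the dose cannot be told apart here. In vehicle males after 5 doses, 4 of 7 lipogenic genes were called lower than at 24 h, including Scd (-3.34 ± 0.68), Fasn (-2.16 ± 0.44) and Acly (-2.06 ± 0.35). Over the 3 times together, vehicle females had lower Pck1 than vehicle males, by a difference of -0.88 ± 0.20 (adjusted p = 0.00074), 1 of 9 where 15.3% of all probe sets were called. With rat 1003 kept it was -0.37 (adjusted p = 0.55).

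Whether the members move together can be read from rats that had the same treatment, since the choice of genes compared groups and not rats within a group. This measure was added after the data were seen. Each rat's deviation from its group mean was taken for 8 measures (the 7 genes with a probe set of their own and the shared probe set), giving 28 pairs over 89 rats. A permutation test that shuffles rats within groups gave 9 pairs with adjusted p under 0.05 for both Pearson's r and Spearman's rho, all 9 positive. Pairs of other genes were not put through this test. The 9 of 28 therefore has no background share beside it, and cannot be read as particular to these genes. The strongest pair was Igfbp1 with the shared probe set, at r = 0.67 and rho = 0.62 (adjusted p = 0.00014 each, from 1e-05, the smallest p that 100000 permutations can give). Its r was 0.64 without the 2 rats farthest out on the shared probe set. By time it was 0.74, 0.62 and 0.61 at 6 h, 24 h and 5 doses (29, 30 and 30 rats), and by sex 0.63 in females and 0.70 in males (45 and 44 rats). Pck1 followed both, at r = 0.57 and rho = 0.53 with the shared probe set and at r = 0.52 and rho = 0.49 with Igfbp1 (adjusted p = 0.00014 and 0.00019, for r and rho alike). Without the 2 rats farthest out on Pck1 these were 0.56 and 0.52. Rats far out on the other measure stayed in, among them PB male 4005, whose Igfbp1 deviation at 6 h was 5.07.

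Pck1 was also correlated with Tat (r = 0.42, rho = 0.45, adjusted p = 0.0016 and 0.00063), with Pdk4 (r = 0.33, rho = 0.29, adjusted p = 0.003 and 0.03) and with Sds (r = 0.31, rho = 0.34, adjusted p = 0.0076 and 0.011). Pdk4 was correlated with Igfbp1 (r = 0.37, rho = 0.39, adjusted p = 0.0016 and 0.0009), with r = 0.59 in females and 0.12 in males, and with the shared probe set (r = 0.33, rho = 0.29, adjusted p = 0.0052 and 0.033). Sds was correlated with Tat (r = 0.35, rho = 0.34, adjusted p = 0.049 and 0.026), which for r missed the threshold under median scaling (adjusted p = 0.051) and with rat 1003 kept (0.12). Without the 2 rats farthest out, these r values were 0.42, 0.33, 0.29, 0.30, 0.31 and 0.36, in the order given. Distance was taken on Pck1 for its pairs, and on Pdk4, the shared probe set and Sds for the others in turn. Pck1 and Pdk4 held r = 0.40, 0.04 and 0.57 at the 3 times. No pair with Fbp1 or Pklr passed for r, and for rho Pck1 with Pklr did (-0.26, adjusted p = 0.048). With rat 1003 kept, 6 pairs passed for r, 5 of the 9 and Fbp1 with Sds (0.46, adjusted p = 0.036). Those lost were Sds with Tat and Pck1 with Igfbp1 (0.08, adjusted p = 0.63), Tat (0.22, adjusted p = 0.27) and Pdk4 (-0.01, adjusted p = 0.96). Mean array intensity within groups had r = 0.34 with Pck1, 0.22 with the shared probe set, 0.11 with Igfbp1 and 0.07 with Pdk4, and its part in these correlations was not tested.

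The 9 pairs were then tested in the D3T, PFOA and PFOS, and Wy-14643 studies, with exact permutations within groups. Of 27 tests 23 were positive (8 of 9, 9 of 9 and 6 of 9), and none had an adjusted p under 0.05. In the Wy-14643 study (18 rats), G6pc1 with Igfbp1 had r = 0.82 (exact p = 0.0058, adjusted 0.079) and Pck1 with Tat r = 0.74 (adjusted exact p = 0.062). The pairs with Pdk4 were negative there, at r = -0.51 with Pck1, -0.31 with G6pc1 and -0.08 with Igfbp1. Pdk4 with Igfbp1 had r = -0.76 in the D3T study (8 rats) and 0.83 in the PFOA and PFOS study (9 rats). As an example picked after the data were seen, rat 12 of the 7-day Wy-14643 group was the highest of its 3 rats for Igfbp1 (10.57), G6pc1 (12.85), Pck1 (13.01), Sds (9.20) and Tat (11.65). For Pdk4 it was not (9.33, against 10.45 in rat 13).

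**Figure D4:**
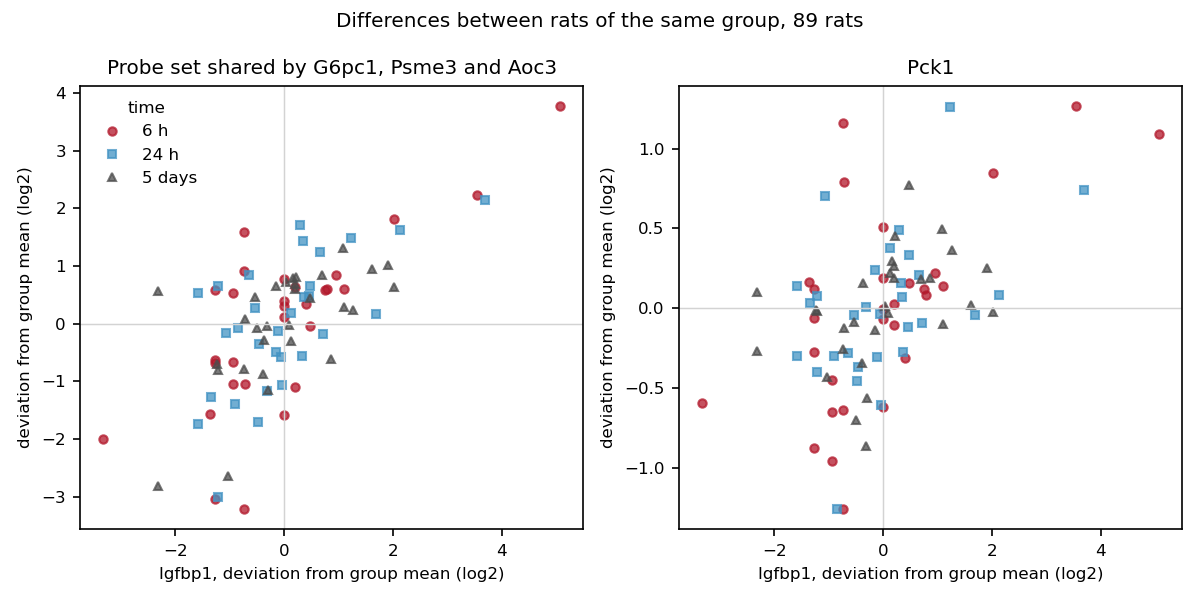
Deviation of each of 89 rats from its group mean (log2) for Igfbp1 on the x axis, against the shared probe set (left) and Pck1 (right), by time. Points run from lower left to upper right, with r = 0.67 and 0.52, and the rat farthest right is PB male 4005 at 6 h.

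The genes most like each member over the 18 group means were looked up among 4523 other genes, as a description. Sds and Tat shared Got1 as the nearest (r = 0.87 each), followed by Cps1 (0.84) for Sds and Uox (0.86) for Tat. Pdk4 was nearest to Acot1 (0.83), and Pklr to Scd (0.82), Srebf1 (0.79) and Khk (0.78). Pck1 was nearest to Serinc3 and Errfi1 (0.85 each), Igfbp1 to Amigo1 (0.82), Fbp1 to Kcna4 (0.78) and the shared probe set to Spn (0.73).

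In the PFOA and PFOS study, Pdk4 was high and Pklr low in PFOA livers. Pdk4 was 12.44, 12.69 and 12.83 in PFOA rats and 9.48, 10.25 and 10.47 in PFOS rats, against 10.03, 10.38 and 10.49 in vehicle rats. PFOA rats were apart from the others, by 2.35 ± 0.27 from vehicle, and PFOS rats overlapped with vehicle (-0.23 ± 0.27). The second Pdk4 probe set gave 2.72 ± 0.56 for PFOA and -0.42 ± 0.56 for PFOS. Pklr was 5.98, 7.38 and 7.50 in PFOA rats and 8.96, 9.04 and 9.08 in PFOS rats, against 9.39, 10.26 and 10.98 in vehicle rats. The 3 groups did not overlap, and the differences from vehicle were -3.25 ± 0.52 and -1.18 ± 0.52. The second Pklr probe set was at the floor in all 3 PFOA rats. Sds was high with both acids, at 12.08, 12.26 and 12.60 in PFOA rats and 12.35, 12.61 and 13.09 in PFOS rats, against 9.18, 10.08 and 11.04 in vehicle rats (2.22 ± 0.46 and 2.59 ± 0.46). The G6pc1 probe set was lower, at 10.01, 11.19 and 11.67 in PFOA rats and 10.67, 11.50 and 11.67 in PFOS rats, against 11.80, 12.74 and 12.77 in vehicle rats (-1.48 ± 0.51 and -1.15 ± 0.51, no overlap). It was not called for either acid. The other probe sets annotated to Psme3, Aoc3 and G6pc1 disagreed for PFOA, at -1.52 ± 0.51, 1.00 ± 0.21 and 0.81 ± 0.52, each without overlap. Of these, the one at 1.00 was called. For PFOS, in the same order, they gave -1.59 ± 0.51, 0.29 ± 0.21 and -0.14 ± 0.52.

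For PFOA 3 of 9 member probe sets were called higher, both of Pdk4 and that of Sds, and 1 lower, the main one of Pklr (6.05% of all probe sets). The 4 calls became 1 without 1 of the vehicle rats, and 2 without another vehicle rat or either of 2 PFOA rats. For PFOS none was called by limma (0.461% of all probe sets), and 1 had an unadjusted p under 0.05. Tested directly, PFOA minus PFOS was 2.59 ± 0.27 for Pdk4 (adjusted p = 0.013), 1 of 9 beside 1.31% of all probe sets. The second Pdk4 probe set gave 3.14 ± 0.56 (adjusted p = 0.058), and with only the groups compared the first had an adjusted p of 0.062. Pklr differed by -2.07 ± 0.52 (adjusted p = 0.12). Doses differed (20 and 10 mg/kg/day). Without 1 of the PFOA rats or 1 of the PFOS rats, 2 members were called. Of 9 fasting fatty acid and ketone genes, 6 were called higher with PFOA, led by Acot1 (8.26 ± 0.48), Acot2 (3.20 ± 0.21) and Ehhadh (2.98 ± 0.26), and 1 with PFOS. Of 13 clock genes, 2 were called higher and 1 lower with PFOA, and 1 higher and 1 lower with PFOS. Dbp was higher by 3.94 ± 0.13 with PFOA and 4.16 ± 0.13 with PFOS, and Bmal1 differed by -2.82 ± 0.10 and -3.19 ± 0.10. Among non-parenchymal markers, 2 of 6 endothelial genes were called lower with PFOA, Kdr (-1.83 ± 0.24) and Tek (-1.10 ± 0.20), and 2 of 6 stellate genes, Lrat (-1.73 ± 0.29) and Col3a1 (-0.69 ± 0.13). The endothelial markers averaged 8.04 to 8.33 in PFOA rats, against 8.42 to 9.01 in vehicle rats. The part of clock genes and of these cells in the member differences was not tested.

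Wy-14643 gave the same pair at each time in male Wistar Hanover rats. Pklr was 8.89, 8.96 and 9.29 after 1 day of Wy-14643, against 10.76, 10.79 and 11.21 in vehicle rats. It was 8.78, 9.05 and 10.07 after 3 days, against 10.41, 10.80 and 10.99, and 8.59, 9.33 and 9.47 after 7 days, against 10.45, 10.92 and 11.11. The groups were apart at each time, by -1.87, -1.43 and -1.70 (each ± 0.33). Pdk4 was 8.82, 9.08 and 9.13 after 1 day of Wy-14643, against 7.62, 7.67 and 7.81 in vehicle rats. It was 8.06, 10.03 and 10.25 after 3 days, against 7.70 to 7.91, where the low value is rat 06, and 9.10, 9.33 and 10.45 after 7 days, against 7.67 to 8.01. These groups did not overlap either, with differences of 1.31, 1.61 and 1.77 (each ± 0.47). Pck1 after 7 days was 11.31, 11.82 and 13.01 with Wy-14643, against 13.00 to 13.15 in vehicle rats (-1.03 ± 0.33). Leaving out rat 05 gave -1.82 for Pklr and 1.40 for Pdk4 at 1 day.

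Of 8 member probe sets, 0 were called higher and 1 lower after 1 day (11.5% of all probe sets), 1 and 1 after 3 days (10.8%), and 1 and 3 after 7 days (13.1%). The 3 were Fbp1, at -0.25 ± 0.06, and both probe sets of Pklr. The 3-day calls became 0 without vehicle rat 26 or Wy-14643 rat 07 or 08, and 1 without vehicle rat 28 or 29. The 7-day calls became 2 without vehicle rat 33 or Wy-14643 rat 14, and 1 without vehicle rat 34 or 35. The effect at 7 days minus 1 day called none of the 8 in limma (1.87% of all probe sets), with 2 unadjusted p under 0.05. The vehicle groups called none at 3 days (0.0126%) or 7 days (0%) against 1 day, and none had an unadjusted p under 0.05. Fasting fatty acid and ketone genes were called higher in 6, 8 and 8 of 9 at 1, 3 and 7 days, led by Acot1 (7.84, 7.87 and 8.40, each ± 0.38). Of 14 amino acid genes, 5 were called lower at each time. Of 9 lipogenic genes, 3 were called higher after 7 days, Scd2 (4.04 ± 0.16), Me1 (3.61 ± 0.50) and Elovl6 (3.14 ± 0.79), and the list averaged 10.69 to 11.19 with Wy-14643, against 9.13 to 9.52 in vehicle rats. Markers of other cells moved at 7 days too. Both measured blood genes were called lower, with averages of 10.41 to 10.88 with Wy-14643, against 11.20 to 11.95 in vehicle rats. Of 6 macrophage markers 2 were called lower, C1qa (-1.03 ± 0.27) and Csf1r (-0.70 ± 0.17), and the list averaged 7.71 to 8.03, against 8.13 to 9.35. Of 8 hepatocyte markers 3 were called lower, with averages of 13.03 to 13.15, against 13.24 to 13.29. None of 12 clock genes was called at 7 days, and their averages were 6.20 to 6.26, against 6.37 to 6.58. The part of these genes and cells in the member differences was not tested.

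**Figure D5:**
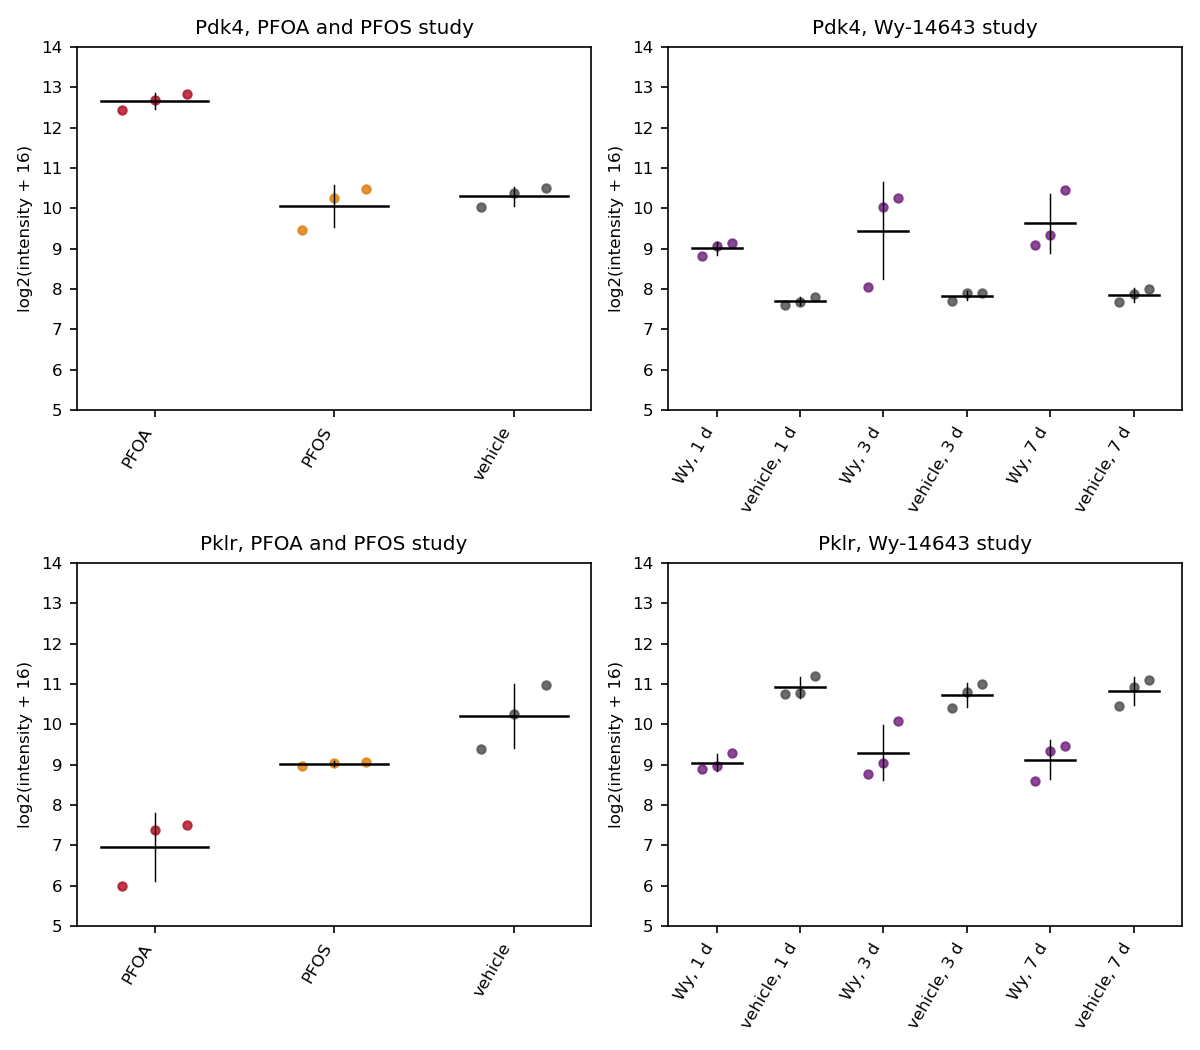
Log2(intensity + 16) of Pdk4 and Pklr in each rat of the PFOA and PFOS study (left) and the Wy-14643 study (right). Points are rats, horizontal bars group means and vertical lines 1 SD (n = 3). Pdk4 lies above vehicle with PFOA and Wy-14643, and Pklr below it.

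In D3T livers Igfbp1 was lower than in control livers. It was 8.05, 8.59, 8.92 and 9.65 in D3T rats, against 10.09, 10.21, 10.39 and 10.59 in control rats, apart by -1.52 ± 0.34. Fbp1 was 11.26, 11.33, 11.45 and 11.45 in D3T rats, against 11.00, 11.11, 11.15 and 11.15 in control rats, apart by 0.27 ± 0.06. These are values after normalization. As deposited, Fbp1 ran the other way, at an intensity of 1340 to 1476 in D3T rats, against 2892 to 4112 in control rats, and Pck1 was 892 to 1087 in D3T rats, against 2819 to 4062 in control rats. Array brightness and diet cannot be told apart here, and the higher Fbp1 holds only after the arrays are scaled to each other. Tat differed by -0.44 ± 0.13, and Pdk4 by 0.07 ± 0.38. Thus 1 of 9 was called higher and 1 lower (12.6% of all probe sets). The count of 2 became 0 or 1 without any 1 of the 8 rats, D3T rats 1, 3 and 4 giving 1 and the other 5 giving 0. Outside that count, the shared probe set differed by 0.87 ± 0.62, with overlapping groups. The dimmer probe set of the same annotation was called higher, by 0.59 ± 0.09, with the groups apart. As deposited it ran the other way, at 27.0 to 49.3 in D3T rats, against 70.9 to 129 in control rats. In these D3T livers 1 of 5 stellate markers was called lower (Col1a1, -1.68 ± 0.08), 1 of 4 endothelial markers (Lyve1, -1.30 ± 0.22) and 2 of 4 macrophage markers (Clec4f, -0.94 ± 0.15, and C1qb, -0.55 ± 0.11). The macrophage markers averaged 7.22 to 7.40 in D3T rats, against 7.54 to 7.73 in control rats. Per2 differed by -1.64 ± 0.18. Their part in the member differences was not tested. The 3-week PFOS study had 2 rats a group and called no probe set at all (0%), with no member at an unadjusted p under 0.05 in limma. Igfbp1 was 6.46 and 10.41 in PFOS rats, against 8.26 and 9.11 in vehicle rats, and Pck1 was 9.31 and 11.00, against 9.89 and 10.65. In both cases the same PFOS rat was the low one. Pdk4 was 6.61 and 7.50 in PFOS rats, against 5.96 and 6.75 in vehicle rats.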

How the data were processed

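Liver RNA of 129 rats was measured on Affymetrix arrays of 3 designs, 1 rat per array. The submitters deposited 1 linear intensity for each probe set, some of them below 0. How the authors summarised and normalised the scans is not stated in these sources. Negative values were set to 0. Within each study arrays were quantile normalised, except the 3-week PFOS study, whose array medians lay within 0.5 on the log2 scale and which was used as deposited. Values were then log2(intensity + 16). Depth has no counterpart here, and the number of arrays limits the precision.

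Group means were fitted per study with limma 3.58.1 in R 4.3.3, with Benjamini-Hochberg adjustment over all 8740, 15866 or 31042 tested probe sets, control spots left out. A probe set was called at an adjusted p under 0.05. Gene names come from the platform annotation. The brightest single-symbol probe set of a gene is its main one. Related genes are named by up to 3 largest called changes per list and comparison, and a few more as their values touch a result. The members and lists were chosen with earlier results of these data known. Rat 1003 was left out because its array stood apart. The within-group correlations (scipy 1.17.1, numpy 2.4.6, pandas 2.3.3) were added after the data were seen. Both procedures were run on simulated normal values with the same spread in every group and no floor. Unequal spreads and ties at the floor, which these data have, were therefore not covered. Alternatives were other pseudocounts, another normalization, a filter on low values, fits on only the groups compared, rat 1003 kept and each array left out. The alternative limma results cover single-symbol probe sets only, without the shared and G6pc1 probe sets.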

Additional observations from a re-analysis of the deposited data

Results flagged for a closer look

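In 17 of 159 sets of 4 or 5 rats of a group, 1 rat stood far from the rest, by its gap to the next rat over the range. This rule flags about 1 in 20 only for independent normal values without ties. Here some values are tied at the floor and the genes share rats, so 17 cannot be set against chance. Several of the flagged values came from the same rats. Rat 4505 of the PB females at 6 h was low for Igfbp1 (6.95, against 10.75 to 11.38 in the other 4) and Pck1 (11.09, against 11.77 to 11.90). Rat 1503 of the vehicle females at 6 h was high for Igfbp1 (8.48, against 4.00 to 4.23) and Pdk4 (5.98, against 4.00 to 4.24). Rat 4005 of the PB males at 6 h was high for Igfbp1 (10.34, the others at 4.00) and Tat (11.46, against 10.77 to 10.86). Rat 5503 of the PCN females at 6 h was high for Tat (10.94, against 10.68 to 10.72) and low for the shared probe set (7.08, against 8.78 to 9.44).

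The rest were single values. After 5 doses of PCN in females, Sds was 8.64 in rat 5513, with the others at 4.00, and the shared probe set was 4.00 in rat 5511, against 7.11 to 7.82. Pdk4 at 24 h was 5.31 in PB male 4009, against 6.16 to 6.45, and 4.52 in PCN male 5009, against 5.85 to 6.14. In vehicle males, Fbp1 was 11.79 in rat 1008 at 24 h (11.61 to 11.65 in the others), Pck1 was 12.03 in rat 1015 after 5 doses (11.79 to 11.86), and the shared probe set was 5.48 in rat 1001 at 6 h (7.39 to 7.68). Pklr was 7.09 in vehicle female 1505 at 6 h (7.38 to 7.45), and Tat was 9.91 in control-diet rat 3 of the D3T study, with the others at 10.08.

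Some treatment effects differed between the sexes or the times by limma's test of the difference. The PB effect at 6 h was larger in females than in males by 6.31 for Igfbp1, 5.50 for the shared probe set, 3.74 for Pdk4 and 2.30 for Pck1. The PB effect in females after 5 doses minus that at 6 h was -5.63 for the shared probe set, -5.29 for Igfbp1, -4.50 for Pdk4, -2.01 for Pck1 and -0.42 for Fbp1. For PCN in females it was -5.57 for the shared probe set.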

How the results depend on the processing

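Fits with only the groups compared have fewer arrays and take the spread from those groups alone. The fit over all groups assumes the same spread in each, but spreads were unequal. The SD of Igfbp1 ran from 0.0 (PCN females, 6 h, all at the floor) to 2.84 (PB males, 6 h). With only the groups compared, member calls numbered 6 in place of 26 for PB and PCN against vehicle, 10 in place of 12 for PB minus PCN, 1 in place of 3 for vehicle by time, 0 in place of 3 for the sex differences, 1 in place of 4 for 5 doses minus 6 h, 2 in place of 4 for PFOA and PFOS against vehicle, 0 in place of 1 for PFOA minus PFOS and 2 in place of 7 for Wy-14643. These counts are not subsets: PB minus PCN in females at 6 h had 7 in place of 4, PCN females at 6 h 1 in place of 0, and Wy-14643 had 2 in place of 1 after 1 day and 0 in place of 2 and 4 after 3 and 7 days. The vehicle sex difference gave 3 calls at a pseudocount of 64 and 0 with rat 1003 kept, against 1. For D3T, with 2 calls, median scaling gave 1, leaving out the lowest 33.3% of probe sets gave 1, and the replicate block gave 0. The D3T replicate numbers did not pair the rats (deviation correlations 0.27, -0.08, -0.09 and -0.20). PFOA minus PFOS gave 2 without the lowest 33.3%. Leaving out 1 array at a time gave 0 to 1 calls for D3T, 1 to 2 for PFOA minus PFOS, 1 to 4 for PFOA and PFOS against vehicle and 3 to 9 for Wy-14643. With rat 1003 kept, the within-group correlation of Pck1 with Pdk4 was -0.0141 in place of 0.33 (adjusted p = 0.96), and 6 pairs passed in place of 9. Beyond what its construction shows, the cause was not tested. Over all results and alternatives, 5264 were counted as unchanged, 127 lost a call, 39 gained one, 57 moved and 1 reversed. Unchanged means still called in the same direction, or still uncalled with a shift smaller than the SD within the groups compared. For within-group pairs, still uncalled was enough, whatever the sign or size. Pck1 with Fbp1 went from r = -0.02 to 0.59 with rat 1003 kept and counts as unchanged. A reversal could be counted only for a called result. Values at the floor limit Igfbp1, Sds, Pdk4 and the shared probe set, which was at 4.00 in 2 of 5 vehicle females at 6 h.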
